A study of Sus scrofa with 5 samples.

Results

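FABP1-high epithelial cells were taken from single-cell RNA-seq of the pig cecum as barcodes with at least 200 detected genes, at least 1 unique molecular identifier (UMI, marking 1 captured RNA molecule) of the epithelial keratin KRT8 and FABP1 of at least 60 UMIs per 10000 UMIs of the cell. Cells were also required to hold TMIGD1 plus DPEP1 under 15, OLFM4 under 20 and MUC2 plus CLCA1 plus SPINK4 under 20 UMIs per 10000, which left out cells high in absorptive, crypt or goblet markers. By these limits 519 of 72701 kept cells (0.714%) were FABP1-high cells. The members were therefore chosen by their own UMIs of these genes, and the levels of the limiting genes below describe the choice.

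The study followed the cecum of male Large White piglets from 3 sows, fed on maternal milk, from birth to 21 days of age, with 1 library at each of 0, 1, 7, 14 and 21 days (d0, d1, d7, d14 and d21). All groups shared breed and diet by the study's methods and tissue and sex by the labels, and differed in age. At each age the mucosal cells of 5 piglets were mixed after dissociation and captured together on the 10x Genomics platform, so animals could not be separated and age could not be told apart from library. The kept cells held between 47921183 UMIs at d7 and 91863866 UMIs at d14.

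FABP1 encodes the liver-type fatty acid binding protein, a small cytosolic carrier that takes up long-chain fatty acids in hepatocytes and in absorptive cells of the gut and passes them to storage, secretion or oxidation. In the intestine FABP1 is a product of mature absorptive cells and works beside FABP2, the intestinal form, and FABP6, which carries bile acids in the ileum. KRT8 is a keratin of simple epithelia, and S100A6 is a small calcium-binding protein. On Sscrofa11.1, FABP1 lies on chromosome 3 from 57850511 to 57854966, KRT8 on chromosome 5 from 18172423 to 18180277 and S100A6 on chromosome 4 from 96098264 to 96099686, by the RefSeq annotation.

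The cells were found mainly in 2 of the 5 libraries. There were 290 at d0, 5 at d1, 194 at d7, 8 at d14 and 22 at d21. Of all kept cells this was 1.91% at d0 (exact Clopper-Pearson 95% interval 1.69 to 2.14), 0.0354% at d1 (0.0115 to 0.0825), 1.89% at d7 (1.63 to 2.17), 0.0495% at d14 (0.0214 to 0.0974) and 0.130% at d21 (0.0816 to 0.197). The shares at d0 and d7 could not be separated by their intervals, and both lay above those of the other libraries. Among cells with a UMI of KRT8 the order was different, with 7.01% at d7 (6.09 to 8.03) against 2.62% at d0 (2.33 to 2.94). The remaining shares of KRT8-positive cells were 0.0610% at d1, 0.857% at d14 and 0.729% at d21. All intervals here cover counting error only, since each age had 1 library and no test between ages was possible.

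**Figure D1:**
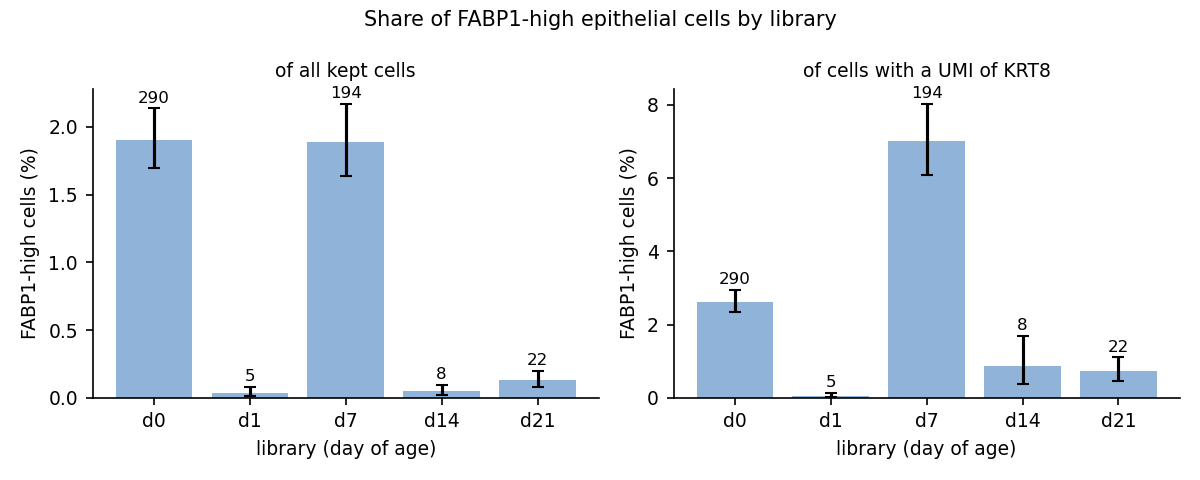
Bars give FABP1-high cells as a percent of all kept cells (left) and of cells with a UMI of KRT8 (right) in each library, with exact Clopper-Pearson 95% intervals and the number of cells above each bar. The d0 and d7 bars are 1.91% and 1.89% on the left and 2.62% and 7.01% on the right, and the other libraries hold 5, 8 and 22 cells.

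The limits acted differently at d0 and d7. Of the 1151 cells with enough FABP1 and KRT8, 632 were left out, and 620 of these failed on TMIGD1 plus DPEP1. TMIGD1 and DPEP1 are a membrane adhesion protein and a brush border dipeptidase of differentiated absorptive cells. At d0 the limit removed 577 of 871 cells. Of the 290 that met every limit, 36.6% lay between 10 and 15 UMIs per 10000, next to the limit. At d7 it removed 34 of 235, and 22.2% of the 194 that met every limit lay between 10 and 15. Cells just inside the FABP1 limit (60 to 66 UMIs per 10000) numbered 37 at d0 and 3 at d7, and cells just outside (54 to 60) numbered 51 and 15. At d0 the members were thus the part of a continuous spread of FABP1 and TMIGD1 values that the limits enclosed, whereas at d7 most cells lay far above the FABP1 limit, with a median of 170 UMIs per 10000 against 83.1 at d0.

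**Figure D2:**
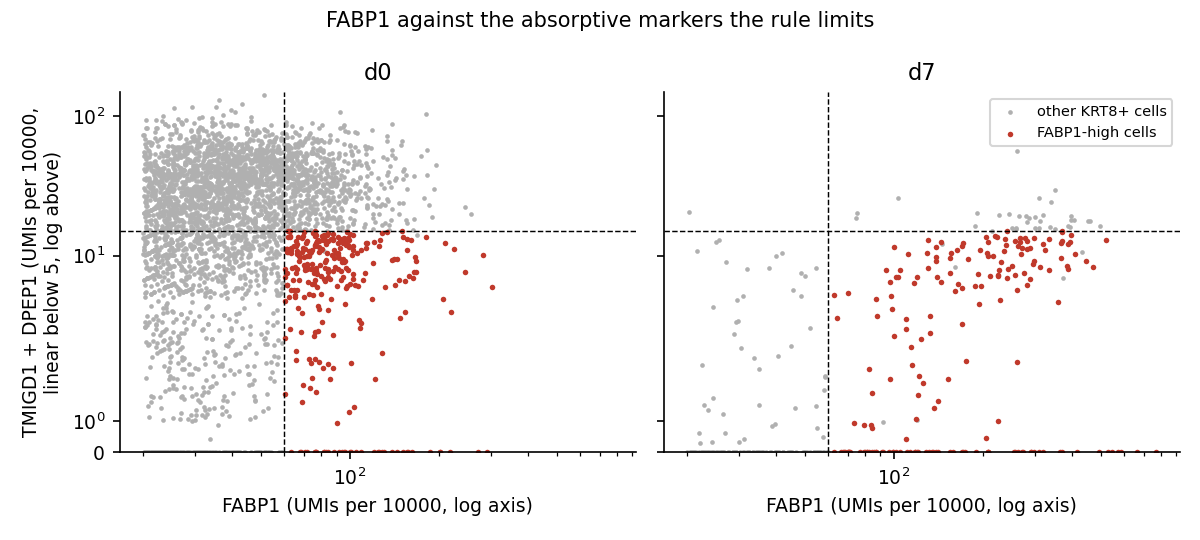
Each point is a cell with a UMI of KRT8 and at least 20 UMIs of FABP1 per 10000, with FABP1 on the horizontal axis and TMIGD1 plus DPEP1 on the vertical axis, at d0 (left) and d7 (right), and the dashed lines mark the limits of 60 and 15. FABP1-high cells (red) border on a dense field of other cells at d0 and stand mostly apart at d7. At d0, 577 cells with FABP1 of at least 60 lie above the TMIGD1 plus DPEP1 limit.

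The label of the cells was checked against markers of other cell types. EPCAM, the epithelial adhesion molecule, was detected in 82.1% of members at d0 and 76.8% at d7, and S100A6 in 94.5% and 98.97%. The stem cell gene LGR5, the goblet gene ZG16 and the enteroendocrine gene CHGA were at 0 UMIs in both libraries, and none of 18 enteroendocrine genes reached the level needed for a comparison. Other secretory and crypt genes were present, with TFF3 at 0.409 UMIs per 10000 at d0 and 1.30 at d7, SPINK4 at 0.933 and 3.91 and OLFM4 at 0.00426 and 0.986, the last 2 under the limits of the rule. EPCAM is independent of the limits, whereas KRT8 was required of every member. KRT20, a keratin of mature surface cells, had a level of 13.9 UMIs per 10000 at d0 and 27.8 at d7. The proliferation gene MKI67 had 0 UMIs at d0 and 14 at d7.

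Some barcodes also carried RNA of other cells, and more of them at d7 than at d0. PTPRC, the leukocyte marker CD45, was found in 1.72% of members at d0 and 34.5% at d7, CD3E in 0.345% and 13.4%, and the hemoglobin gene HBB in 0.690% and 50.5%. After every cell was thinned to 1000 UMIs, leaving out 22 shallower members at d0 and 19 at d7, the shares at d7 were 9.14% for PTPRC, 1.71% for CD3E and 8% for HBB. T cells (at least 1 UMI of CD3E and none of KRT8) gave 61.0%, 60.3% and 12.97% at d7 on the same footing. The summed level of 11 T cell genes in the members was 0.379 UMIs per 10000 at d0 and 2.21 at d7, against 147 and 105 in T cells, with CCL5 the most abundant and CD3D and CD4 at 0 in both libraries. In the few later members, PTPRC and CD3E were each found in 12.5% at d14 and 22.7% at d21. COL3A1 was found in 5 of 8 members at d14. These later shares were not thinned, and the median d21 member held 1039 UMIs against 11284 at d7. No doublet caller was run, no barcode was shared between members of different libraries, and 12 member barcodes also occurred as non-members in another library.

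Depth and RNA quality moved with age as well. The median member held 6534.5 UMIs at d0, 3085 at d1, 11284 at d7, 1394 at d14 and 1039 at d21. Mitochondrially encoded genes took 15.4% of member UMIs at d0 and 12.6% at d7. At d7, 22 cells held over 50000 UMIs, up to 173369, against 1 cell at d0, and the deepest 20 of 194 cells at d7 held 43.5% of all member UMIs, against 30.8% in the deepest 29 of 290 at d0. The part of depth and RNA quality in the results below was not tested. Values without the mixed barcodes, those with a UMI of PTPRC, COL3A1, COL1A2, PECAM1 or HBB, rest on 64 cells at d7 and 279 at d0 and are given for several results below.

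FABP1 itself had a summed level of 87.6 UMIs per 10000 at d0 (exact Poisson 95% interval 86.4 to 88.8), 72.9 at d1 (63.0 to 83.9), 218 at d7 (217 to 219), 101 at d14 (91.7 to 112) and 114 at d21 (106 to 123). At d14, 1 of 8 cells held 202 of the 407 UMIs, without which the level was 153. A level here is the sum of a gene's UMIs over the members per 10000 of their UMIs, counted at transcript 3' ends and not divided by length. The d7 cells were highest, above a floor of 60 that the limits set in every library. Without the mixed barcodes FABP1 was at 88.4 at d0 and 159 at d7, a 1.80-fold difference in place of 2.49-fold. In members with TMIGD1 plus DPEP1 under 5, 85 cells at d0 and 103 at d7, it was at 91.6 and 135. Both fall short of the 2-fold limit used for calls below. The members held 11% of all FABP1 UMIs of the d0 library, 0.428% at d1, 63.8% at d7, 13.1% at d14 and 20.5% at d21. These shares follow from the limits, since at d0 the cells left out on TMIGD1 plus DPEP1 alone or with another limit held 44135 FABP1 UMIs of the library's 185246. The background was read from T cells, which had 1.51 UMIs of FABP1 per 10000 at d0 and 0.876 at d7, and after thinning 15.9% and 9.62% of T cells had a UMI.

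Among the other genes on the list of fatty acid binding proteins, which also holds the acyl-CoA binding protein DBI, FABP6 and RBP2 were lower at d7 and DBI was higher. FABP2 had 3 UMIs at d0 and 1 at d7 in all members together, and 0 in the other libraries. FABP6 had a level of 7.58 at d0 (7.23 to 7.94) from 1780 UMIs and a single UMI at d7, which gave 0.00236 (5.97e-05 to 0.0131). FABP6 was detected in 95 of 290 d0 cells. At 1000 UMIs per cell the share was 10.4%, against 34.3% unthinned in the same cells (median 7093 UMIs), and in T cells 2.78% and 6.75% (median 2057 UMIs). A single cell held 28.8% of its UMIs, without which the level was 5.42. DBI, which binds acyl-CoA, was at 2.43 at d0 (2.23 to 2.64) and 6.37 at d7 (6.13 to 6.62), 2.63-fold higher beside 2.49-fold for FABP1, and 1.83-fold higher without the mixed barcodes. RBP2, which carries retinol in enterocytes, was at 2.80 at d0 and 0.444 at d7.

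Genes that handle fatty acids around FABP1 were compared between the d0 and d7 members. For this and the following comparisons, genes expected at 10 UMIs or more in each library were compared by the log2 ratio of levels with 0.1 added, and called past 2-fold, since 1 library per age left no replicate spread to test against. Of 8806 genes, 560 (6.36%) were higher at d7 and 346 (3.93%) lower, so 10.3% passed in either direction, with a median log2 ratio of 0.12. The lists of fatty acid oxidation and uptake were near these shares. Of 24 compared genes of fatty acid oxidation and ketogenesis, 2 were higher and 0 lower. CPT1A, the gate of mitochondrial fatty acid entry, was at 0.153 at d0 and 0.547 UMIs per 10000 at d7. Of 12 genes of fatty acid uptake and triglyceride synthesis, SLC27A3 was higher and ACSL3 lower. Of 8 genes of lipoprotein assembly, 0 were higher and 2 were lower. With TMIGD1 plus DPEP1 under 5, 3 genes of lipoprotein assembly could be compared, with 1 higher and 0 lower.

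The lower pair were APOA1 and APOB, the structural proteins of intestinal lipoproteins. APOA1 stood at 0.758 at d0 (0.651 to 0.878) and 0.00708 at d7 (0.00146 to 0.0207), and APOB at 0.417 and 0.0283. T cells, which should lack the gene, held 0.854 UMIs of APOA1 per 10000 at d0, so the members' d0 level was not above that background. At d7 there were 3 UMIs of APOA1 in members and 4 in T cells. MTTP, which loads lipid onto APOB, had 8 UMIs at d0 and 0 at d7. These levels were low even at d0, where cells left out on TMIGD1 plus DPEP1 had 6.03 UMIs of APOA1 per 10000 and FABP1-low cells 4.82. FABP1-low cells are cells that met every other limit, including a UMI of KRT8, had a UMI of EPCAM and had FABP1 under 60. Without the mixed barcodes, 3018 of 3272 FABP1-low cells remained at d0 and 77 of 294 at d7.

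Among 26 transcription factors of enterocytes and lipid metabolism, 0 were higher at d7 and 4 were lower. In members with TMIGD1 plus DPEP1 under 5, 18 could be compared, with 1 higher and 1 lower. NR1H4, the bile acid receptor FXR, was at 0.958 at d0 (0.837 to 1.09) and 0.153 at d7 (0.118 to 0.195), and GATA6 was at 1.17 and 0.323. KLF5, also among the 4, was at 1.04 and 0.465. HNF4A and CDX2, which define intestinal epithelium, were at 1.06 and 2.55 at d0 and 1.34 and 3.49 at d7, within 2-fold. In FABP1-low cells 8 of 27 genes of this list were lower at d7 and 0 higher, where 4.13% of all genes were lower. In cells left out on TMIGD1 plus DPEP1, 6 of 26 were lower and 1 higher, where 7.92% of all genes were lower and 6.18% higher.

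Digestive and small intestinal functions were the list with the most genes lower at d7. Of 20 compared genes, 14 were lower and 1 was higher (SLC2A5, the fructose transporter), with a median log2 ratio of -1.40 against 0.12 for all genes. Bile acid transport was part of this. SLC10A2, the apical bile acid importer, had a level of 0.477 at d0 (0.393 to 0.574) and 0.00472 at d7 (0.000571 to 0.0170), and SLC51B, a subunit of the basolateral exporter, 12.98 and 5.79. Its partner SLC51A was at 1.62 and 0.996, within 2-fold. The peptidases ANPEP and DPP4 were at 0.750 and 0.383 at d0 and at 0.217 and 0.116 at d7, and the sugar enzyme SI had 44 UMIs at d0 and 1 at d7.

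The 10 largest single differences toward d0 were those of FABP6, PPP1R1A, PDZK1, SMLR1, SMIM24, PLK2, ANXA13, RDH5, PRSS23 and APOA1. Of these, SMIM24 belongs to the digestive and small intestinal list. PLK2 was at 4.13 at d0 and 0.238 at d7. In the groups of members described below it was at 0.237 in group 1 and 6.81 in group 3, both almost all of d0 cells. PDZK1, a scaffold of brush border transporters, was at 2.38 at d0 (2.18 to 2.58) and 0.0472 at d7 (0.0288 to 0.0729). PPP1R1A, an inhibitor of protein phosphatase 1, was at 4.05 and 0.0189, and ANXA13, an annexin of intestinal epithelium, at 5.40 and 0.453. ANXA13 was detected in 246 of 290 d0 members, with a median of 4.82 UMIs per 10000 per cell (quartiles 1.94 and 7.60), and in 75 of 194 d7 members, with a median of 0 (0 and 0.463). The lower quartile at d0 lay above the upper quartile at d7.

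The digestive and small intestinal list was lower at d7 in other KRT8-positive cells too. Digestive and small intestinal genes summed to 37.0 UMIs per 10000 in members at d0 and 14.1 at d7, and in FABP1-low cells to 36.6 and 3.30. The same sum in T cells was 5.54 and 0.881. In FABP1-low cells 22 of 28 compared genes of the list were lower at d7, where 4.13% of all genes were. In cells left out on TMIGD1 plus DPEP1, 22 of 24 were lower, where 7.92% of all genes were lower and 6.18% higher. PDZK1 was at 2.72 and 0.0341 in FABP1-low cells, and PPP1R1A at 2.63 and 0.0526.

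Large-intestinal transport differed in the other direction in the members and in the cells left out on TMIGD1 plus DPEP1, but not in FABP1-low cells. Of 32 compared genes, 12 were higher at d7 in the members and 2 were lower, with a median log2 ratio of 0.73. SLC9A3, the apical sodium-proton exchanger NHE3, was at 0.549 UMIs per 10000 at d0 (0.459 to 0.653) and 6.86 at d7 (6.61 to 7.11), 12.5-fold higher. SLC9A2, a related exchanger, was at 0.537 and 1.81, and the carbonic anhydrase CA4 at 2.31 and 7.89. SLC26A3, the chloride-bicarbonate exchanger, stayed within 2-fold at 2.87 and 2.43. In FABP1-low cells 2 of 33 genes of the list were higher and 12 lower, where 7.39% of all genes were higher and 4.13% lower. The sum there was 37.6 at d0 and 17.6 at d7 against 31.0 and 59.5 in the members. Other markers moved with age in FABP1-low cells, where cell cycle genes summed to 7.49 and 31.9, T cell genes to 0.837 and 18.8 and myeloid genes to 0.895 and 5.65, and their part in this difference was not tested. In the left-out cells (577 at d0 and 34 at d7), 10 of 26 genes were higher and 4 lower. Of all genes 6.18% were higher there and 7.92% lower. The sum was 54.6 and 91.5, with SLC9A3 at 1.38 and 13.2 and CA4 at 5.78 and 16.7. The difference between the populations was not tested, and the members and FABP1-low cells were separated by a limit on FABP1 itself.

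Epithelial defence genes gave the same direction. Of 18 compared, 9 were higher at d7 and 3 lower. LYPD8, a secreted protein that keeps flagellated bacteria from the colonic epithelium, had a level of 4.14 at d0 (3.89 to 4.41), 6.73 at d1, 31.2 at d7 (30.7 to 31.8), 10.2 at d14 and 8.86 at d21. At d1, 1 of 5 cells held 11 of its 18 UMIs, without which the level was 2.96. Its per-cell median was 2.03 at d0 and 15.5 at d7, and it was at 2.56 and 3.45 in FABP1-low cells, 14.6 and 60.6 in cells left out on TMIGD1 plus DPEP1 and 0.657 and 0.176 in T cells. DMBT1, a mucosal scavenger protein, was at 8.45 and 44.6, the protease inhibitor PI3 at 0.273 and 6.41, and SLPI, another inhibitor, at 2.37 and 6.95. Outside the mixed barcodes 4 of 7 genes of this list were higher and 2 lower, where 7.51% of all genes were higher and 8.20% lower. In FABP1-low cells 10 of 19 were higher and 2 lower, where 7.39% of all genes were higher and 4.13% lower. Against 17.8 and 93.3 in members, the sum was 12.5 and 35.2 in FABP1-low cells. PI3 was at 0.275 and 5.84 there and DMBT1 at 5.48 and 14.1. DUOX2, the epithelial hydrogen peroxide source, had 0 UMIs at d0, which allows a level of up to 0.0128, and 477 UMIs at d7 (1.13 per 10000), at least 88.1-fold higher than that floor over the group. The chemokine genes CCL25 and CCL20 and the inflammasome gene NLRP6 were lower at d7, CCL25 with 150 UMIs at d0 and 4 at d7.

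Interferon-response genes were the list with the most genes higher at d7, 18 of 23 with 0 lower, and a median log2 ratio of 2.01. Without the mixed barcodes, 9 of 10 that could still be compared were higher and 0 lower. IFI6 had a level of 0.213 at d0 (0.158 to 0.281), 0.374 at d1, 17.5 at d7 (17.1 to 17.9), 11.5 at d14 and 34.3 at d21. At d14, 1 cell held 42 of its 46 UMIs, without which the level was 2.98. It was detected in 35 of 290 cells at d0 and 154 of 194 at d7. ISG15, a ubiquitin-like modifier, was at 0.664 and 10.0, and the membrane restriction factor IFITM1 at 20.2 and 68.5.

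The same direction was found in other cells of the same libraries. In T cells 16 of 22 compared interferon genes were higher at d7 and 0 lower, where 9.49% of all genes were higher and 1.68% lower, and in FABP1-low cells 19 of 22 were higher, where 7.39% of all genes were. IFI6 was at 0.624 and 26.8 in T cells and at 0.377 and 15.2 in FABP1-low cells. Summed over the list, members held 24.2 at d0 and 142 at d7, FABP1-low cells 15.9 and 71.5, and T cells 18.3 and 78.2. ISG12(A) was otherwise, at 1.06 and 31.2 in members, 1.23 and 9.78 in FABP1-low cells and 0.246 and 0.305 in T cells. ISG15 was also within 2-fold in T cells, at 5.29 and 8.34, and at 0.574 and 6.63 in FABP1-low cells.

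**Figure D3:**
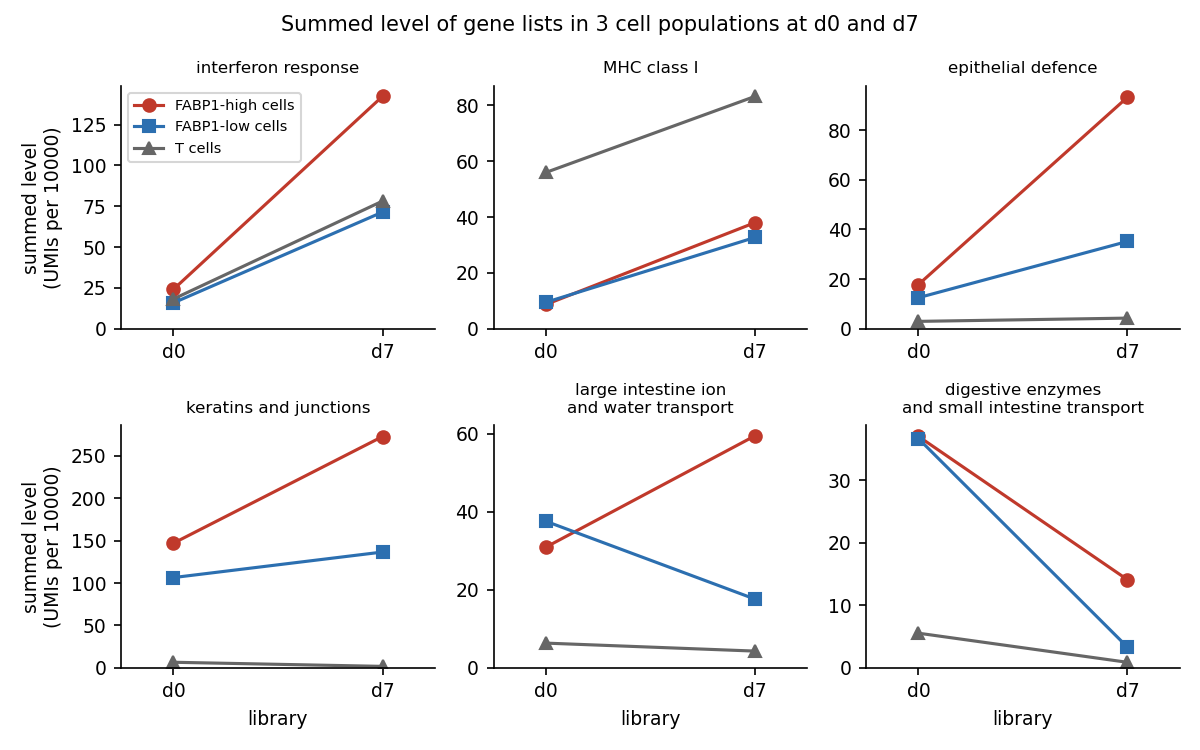
Panels give the summed level (UMIs per 10000) of 6 gene lists at d0 and d7 in FABP1-high cells (red circles), FABP1-low cells (blue squares) and T cells (grey triangles), 1 library per age. Interferon genes are higher at d7 in all 3 populations, while large intestine transport is 59.5 in FABP1-high and 17.6 in FABP1-low cells at d7 after 31.0 and 37.6 at d0.

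Antigen presentation followed. Of 12 MHC class I genes 9 were higher at d7 and 0 lower, with B2M at 4.31 and 14.7 and SLA-1 at 1.43 and 11.9. The SLA genes are a family of near-identical paralogs, so the split of UMIs among them is uncertain. Of 7 MHC class II genes 5 were higher, and their sum was 0.562 at d0 and 2.71 at d7. FABP1-low cells had a class II sum of 2.78 and 22.7, and T cells 19.7 and 25.7. The T cell and myeloid sums of FABP1-low cells were also higher at d7, as given above. Without the mixed barcodes 1 class II gene, CD74, could be compared and was not called, at 0.184 and 0.452, while 6 of 7 class I genes were higher. Class I was higher at d7 in other cells too. In FABP1-low cells 11 of 12 class I genes were higher and 0 lower, where 7.39% of all genes were higher. In cells left out on TMIGD1 plus DPEP1, 9 of 12 were higher and 0 lower, where 6.18% of all genes were higher. In T cells 2 of 13 were higher and 0 lower, where 9.49% of all genes were higher.

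S100 proteins, a calcium-binding family, were mostly higher at d7. Of 10 compared, 6 were higher and 1 was lower. In FABP1-low cells 8 of 13 were higher and 0 lower, where 7.39% of all genes were higher and 4.13% lower. S100A6 had a level of 19.4 at d0 (18.9 to 20.02), 16.1 at d1 (11.6 to 21.7), 86.4 at d7 (85.5 to 87.3), 57.0 at d14 (49.9 to 64.9) and 75.7 at d21 (69.0 to 82.9). Its quartiles per cell were 12.5 and 24.7 at d0 and 51.9 and 113 at d7, which did not overlap. S100A6 was at 8.33 and 23.6 in FABP1-low cells and at 23.1 and 125 in cells left out on TMIGD1 plus DPEP1, above the members at both ages. S100A2 was at 0.0681 and 8.81, 129-fold higher at d7, and S100A11 at 0.243 and 2.46. The exception was S100G, the vitamin D dependent calbindin of intestinal calcium uptake, with 49.3 at d0, 90.9 at d1, 22.9 at d7, 10.7 at d14 and 10.5 at d21. At d14, 1 cell held 42 of its 43 UMIs, without which the level was 0.744. Its per-cell median was 15.9 at d7 and 21.9 at d21, so the order of d7 and d21 depended on the measure.

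**Figure D4:**
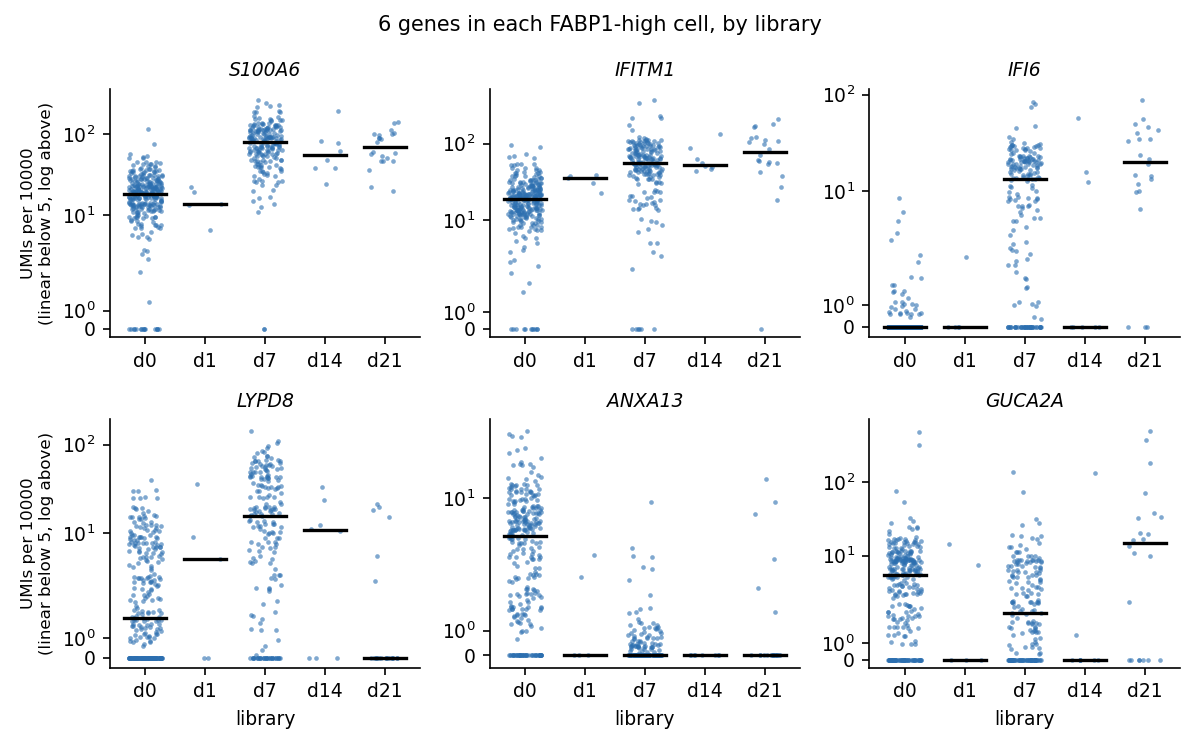
Each point is a FABP1-high cell, with UMIs per 10000 (linear below 5, log above) of 6 genes by library and black lines at the medians. S100A6, IFITM1, IFI6 and LYPD8 sit higher at d7 than at d0, ANXA13 sits lower, and the d21 median of GUCA2A is 14.96.

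Keratins and junction genes were higher in 8 of 23 cases and lower in 0. The 8 include KRT8, which the limits required of every member. KRT8 was 2.07-fold higher, 1.89-fold without the mixed barcodes and 1.62-fold with TMIGD1 plus DPEP1 under 5. KRT18, the partner of KRT8, was at 1.80 and 6.75, and CDH17, an intestinal cadherin, at 1.97 and 6.09. KRT19 was at 46.6 and 80.7, within 2-fold. Of 23 brush border genes 4 were higher and 1, PDZK1, lower, with the actin bundler PLS1 at 4.07 and 6.18. Of 12 goblet and secretory genes 7 were higher and 2 lower, and the list's most abundant gene was TSPAN1, a tetraspanin, at 13.3 and 44.4, while the secreted mucin MUC2, which the limits held down, had 18 UMIs at d0 and 11 at d7. Of 32 antioxidant and xenobiotic genes 11 were higher and 0 lower, with TXN, thioredoxin, at 11.8 and 62.2 and NQO1, a quinone reductase, at 0.0554 and 1.89. In T cells TXN was at 4.07 and 7.65.

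Of 29 heat shock and immediate early genes, 11 were lower at d7 and 3 higher, with FOS at 9.29 and 2.80, EGR1 at 6.95 and 2.03 and ATF3 at 6.13 and 1.40. The d0 members differed among themselves. In the groups of members described below, ATF3 was at 0.206 in group 1, which held 159 of the 290 d0 members, and at 10.4 in group 3. Of 13 mitochondrially encoded genes 5 were lower. The direction of the heat shock and immediate early list turned in members with TMIGD1 plus DPEP1 under 5, where 7 of 29 were higher and 2 lower, with FOS at 3.69 and 3.41. In these cells 11.2% of all genes were higher and 3.65% lower, and 0 of 12 mitochondrial genes were lower. In FABP1-low cells 8 of 29 genes of this list were higher and 3 lower, where 7.39% of all genes were higher and 4.13% lower. In cells left out on TMIGD1 plus DPEP1, 2 of 29 were higher and 16 lower. Of all genes 6.18% were higher and 7.92% lower in the left-out cells. HSPA6, an inducible heat shock protein, was at 0.396 and 5.04 and also higher in T cells (0.706 and 7.05). Other genes among the 10 largest differences toward d7 were HBB, at 0.00852 in members and 0.0493 in T cells at d0 and at 5.56 and 20.8 at d7, and the Y-linked EIF1AY, at 0.0639 and 2.26 in members, while all animals were labelled male. LOC100154873, LOC100524999, LOC110256043 and LOC110257905 are unnamed loci among the same 10. EIF1AY over all kept cells was at 0.412 at d0 and 0.588 at d7.

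**Figure D5:**
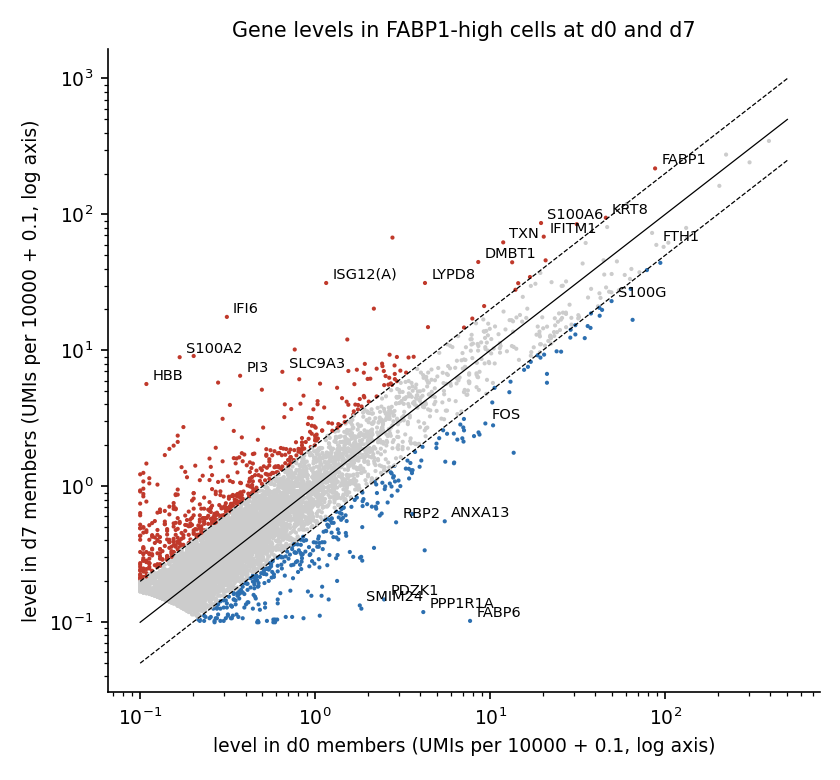
Each point is 1 of 8806 genes, with its level in d0 members (horizontal) and d7 members (vertical) in UMIs per 10000 plus 0.1 on log axes, red where higher and blue where lower past 2-fold at d7, and with dashed lines at 2-fold. IFI6, S100A2, HBB and LYPD8 lie above the lines, and FABP6, PPP1R1A, PDZK1 and ANXA13 below.

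Among the few later members, several lists had their highest sums at d21. Interferon genes summed to 263 UMIs per 10000 against 142 at d7, MHC class I genes to 114.5 against 38.0, heat shock and immediate early genes to 247 against 96.8 and T cell genes to 14.3 against 2.21. Other d21 cells were high in heat shock and immediate early genes too, at 351 in FABP1-low cells and 311 in T cells. Their interferon sums were 99.2 and 90.8, and their MHC class I sums 64.955 and 96.955. At d21, 1 member held 50 of the 91 UMIs of ISG15. The top member for IFITM1 held 173 of 550 UMIs, and that for IFI6 held 64 of 213. Without the top member the levels were 8.09, 79.6 and 29.4, against 10.05, 68.5 and 17.5 in all d7 members. The sums of the interferon, MHC class I, heat shock and T cell lists were not recomputed without single cells. Large intestine transport genes summed to 262, and here 3 cells set the value. GUCA2A, the gene of guanylin, a peptide that drives fluid secretion, had a level of 7.50 at d0, 7.85 at d1, 5.64 at d7, 17.2 at d14 and 146 at d21. At d1, 1 of 5 cells held 14 of its 21 UMIs, without which the level was 4.14. At d14, 1 cell held 65 of its 69 UMIs, without which the level was 1.13. At d21, 3 of 22 cells held UMIs of BEST4, OTOP2 and CA7 together, the markers of BEST4 cells, and these 3 cells held 25066 of the 62095 member UMIs. Without them GUCA2A was at 15.9, CA7 at 0 instead of 41.4, and the sum of the large intestine transport list at 56.2 instead of 262. Cells with all 3 genes numbered 3 at d0, 2 at d7 and 0 at d1 and d14. At d14, 1 cell held 94.9% of the UMIs of the fibroblast gene COL3A1.

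The members were next set beside FABP1-low cells within each library, which is the contrast that defined them, so these values are descriptive. With a UMI of EPCAM on both sides there were 238 members and 3272 FABP1-low cells at d0, and 149 and 294 at d7. At d0, 28 of 9196 genes (0.304%) were higher and 191 (2.08%) lower in members. At d7, 367 of 10369 (3.54%) were higher and 962 (9.28%) lower. Of 8874 genes compared at both ages, 16 (0.180%) were higher and 55 (0.620%) lower at both. In opposite directions, 6 (0.0676%) were higher at d7 and lower at d0, MUC12 among them, and 1 (0.0113%), FABP6, was lower at d7 and higher at d0.

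Among the 15 genes of largest median ratio were LYPD8, at 31.2 over all d7 members and 3.45 in FABP1-low cells, and CA4, at 7.89 and 0.954. At d0 the same pairs were 4.14 and 2.56 for LYPD8 and 2.31 and 2.09 for CA4, within 2-fold. LGALS3, the lectin galectin-3, was at 60.2 in members and 29.9 in FABP1-low cells at d0 and at 119 and 23.8 at d7. PRDX6, a peroxiredoxin, ETHE1, a mitochondrial sulfur dioxygenase, SLC51A, PRAP1 and S100A6 were also in this set. At the other end stood the enteroendocrine genes PYY, SST, CHGA and CHGB, with NTS, FCN2, CENPF, CTSC, SLA-DRA and CD74. PYY was at 0.0681 in members and 6.99 in FABP1-low cells at d0. At d7, 27 of 32 cell cycle genes were lower in members, and 9 of 9 compared T cell genes were lower, with a sum of 18.8 in FABP1-low cells. The part of mixed barcodes among FABP1-low cells in these differences was not tested.

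The members were also set beside the cells left out on TMIGD1 plus DPEP1, alone or with another limit. At d0, 30 of 8653 genes (0.347%) were higher in members and 158 (1.83%) lower. This contrast was set by a limit on TMIGD1 plus DPEP1, so it is a description. Among the genes lower in members were APOA1 (0.758 against 6.03), ANPEP (0.750 against 4.26), MEP1B (0.532 against 2.86) and CLCA4 (0.758 against 3.96), and LYPD8 was at 4.14 against 14.6. PDZK1 (2.38 against 2.72), ANXA13 (5.40 against 6.55) and PPP1R1A (4.05 against 4.92) were within 2-fold. The genes of largest ratio toward members were PPP1R1B (1.34 against 0.267) and LOC100512873 (19.3 against 4.94), and GPX2, an epithelial glutathione peroxidase, was at 0.967 against 0.327. FABP1 was at 87.6 against 82.4 and S100G at 49.3 against 52.3. At d7 the limit left out 34 cells, and 53 of 7341 genes (0.722%) were higher and 15 (0.204%) lower in members.

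Clustering of the 519 members alone gave 5 groups, which mostly followed the libraries. Group 1 (162 cells) was 98.1% from d0, and group 3 (127 cells) was 97.6% from d0. Group 2 (133 cells) was 95.5% from d7. Group 4 (68 cells) held 42 cells of d7, 7 of d14 and 19 of d21, and group 5 (29 cells) held 24 of d7 and 5 of d0. Groups mostly of 1 library may be that library and were left unnamed.

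Leading genes were taken over all other members, d7 cells included. Among those of group 1 were PDZK1, PPP1R1A, SMLR1 and ANXA13, which both groups of d0 cells held. ANXA13 was at 6.93 UMIs per 10000 in group 1 and 4.32 in group 3 against 0.466 in group 2, PPP1R1A at 4.81, 3.48 and 0.0288, and PDZK1 at 3.05, 1.90 and 0.0529. Group 3 was led by PLK2, FABP6, MYLIP, C7H6orf222 and ENC1, with FABP6 at 9.87 against 3.85 in group 1 and PLK2 at 6.81 against 0.237. The stress-induced genes DDIT3 and ATF3 were also among its 10 leading genes, ATF3 at 10.4 against 0.206 in group 1. Mitochondrial genes took 9.75% of UMIs in group 1 and 19.05% in group 3.

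Group 2, of d7 cells with a median of 22971 UMIs, was led by IFI6, LOC100154873, MUC12, PI3 and OAS2, and MUC12, a membrane mucin, was at 2.06 against 0.0901. Group 4 had shallow cells with a median of 1235 UMIs and was led by HBB at 114, with CCL5, GSTA1, NQO1 and S100A11. Group 5 took 65.8% of its UMIs from mitochondrial genes and was led by HBB and FABP6. All d7 members together held 1 UMI of FABP6, so the FABP6 of group 5 came almost wholly from its 5 d0 cells. FABP1 was at 98.4, 217, 79.7, 198 and 95.7 in groups 1 to 5, and S100A6 at 22.0, 86.3, 17.6, 96.2 and 26.8, so both were highest in groups 2 and 4.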

How the data were processed

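Single-cell RNA-seq of the pig cecum was analysed from 5 libraries, 1 at each age, each holding cells of 5 piglets. The authors made the deposited UMI counts with Cell Ranger 3.1.0 on the porcine genome (susScr11, Sscrofa11.1) and did not normalize them. The matrices hold 20648 genes, and more barcodes than the forced cell number named in the study's methods. From the counts, cells with at least 200 genes were kept and the limits on KRT8, FABP1, TMIGD1 plus DPEP1, OLFM4 and MUC2 plus CLCA1 plus SPINK4 were applied with Python 3.11.15 and NumPy 2.4.6. Doublets were not removed.

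Levels are summed UMIs per 10000 summed UMIs. Shares have exact Clopper-Pearson and levels exact Poisson 95% intervals (SciPy 1.17.1), which cover counting error only. Genes expected at 10 UMIs or more on both sides were compared by log2 ratio with 0.1 added, and called past 2-fold. With 1 library per age no test across libraries was possible. Ages were compared where both libraries held at least 50 members, which left d0 and d7. Members were clustered with leidenalg 0.10.2 on 2000 variable genes. Ratios were checked on simulated data. Gene positions are those of RefSeq on Sscrofa11.1, and no sequences were used here.

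The members and gene lists were chosen with earlier results of these data known. Named genes are those of the limits and lists, the 15 highest and 10 lowest by median ratio over FABP1-low cells, the 10 largest differences each way between d0 and d7, and 5 leading genes of each group; a few genes this rule names are not reported here. Genes outside this rule (MEP1B, CLCA4, PPP1R1B and LOC100512873 against the left-out cells, for example) were named after their values were seen. Alternatives were other limits, pseudocounts and filters on cells.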

Additional observations from a re-analysis of the deposited data

Results flagged for a closer look

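At d0 and d7, 7 of 8874 genes differed past 2-fold between members and FABP1-low cells in opposite directions, 6 (0.0676%) of them higher in members at d7 and lower at d0, and 1 (0.0113%) the reverse. The difference between the ages was not tested, and each age had 1 library. MUC12 had a log2 ratio of -1.16 at d0 and 3.35 at d7, SECISBP2L of -1.03 and 1.42, IGSF23 of -1.19 and 1.00 and ANPEP of -1.30 and 1.30. CA7 had -1.32 and 2.11, with its UMIs in 3 members at each age. EIF1AY had -1.61 and 1.11. FABP6 was the reverse case at 1.76 and -1.64, with a level of 6.44 in members at d0, where FABP1-low cells had 1.83, and a single UMI in members at d7.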

How the results depend on the processing

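The share of members followed the limits. With FABP1 of at least 30 it was 5.03%, 0.820%, 2.60%, 0.0989% and 0.272% from d0 to d21, and with at least 120 it was 0.342% at d0, 0.00707% at d1, 1.29% at d7 and 0.0474% at d21. At d0 the share was 2.57% with at least 500 genes per cell, 3.84% in cells under 20% mitochondrial counts and 2.57% with mitochondrial counts out of the denominator, which gave 2.25% at d7. Among KRT8-positive cells it was 2.62% at d0, 7.01% at d7, 0.857% at d14 and 0.729% at d21. The genes higher at d7 than at d0 (560) numbered 89 with a pseudocount of 1. Leaving out barcodes with a UMI of PTPRC, COL3A1, COL1A2, PECAM1 or HBB left 64 d7 cells and 4501 genes. Of these genes 338 (7.51%) were higher, in place of 6.36%, and 369 (8.20%) lower, in place of 3.93%. Higher calls were then 47.8% of calls against 61.8%, with 338 higher in place of 560 and 369 lower in place of 346. The genes lower (346) numbered 69 with the pseudocount of 1, and 151 of only 4138 compared genes in members with TMIGD1 plus DPEP1 under 5, chosen after seeing the data, where 462 were higher, 75.4% of calls. Over FABP1-low cells, the 16 genes higher and 55 lower at both ages numbered 6 and 2 with a pseudocount of 1, 102 and 147 as means over cells, and 29 and 91 with TMIGD1 plus DPEP1 under 5. The lower count was 86 without mitochondrial counts. It was 22 without the mixed barcodes, of only 3909 genes compared in place of 8874. That setting left 39 d7 members, under the minimum of 50 cells used elsewhere. With a pseudocount of 1, 8 of 23 interferon genes and 4 of 32 large intestine transport genes were higher at d7. Of digestive genes 3 of 20 were lower. Calls fell to 1 of 26 transcription factors lower, and to 0 for lipoprotein assembly, fatty acid uptake and oxidation and MHC class II. Brush border genes had 0 higher. Epithelial defence genes had 5 of 18 higher and 0 lower, and goblet and secretory genes 3 of 12 higher and 0 lower. MHC class I had 4 of 12 higher, antioxidant and xenobiotic genes 5 of 32 and keratin and junction genes 5 of 23. Clustering at resolution 1 gave 8 groups in place of 5. The 34 named genes tried were picked for large ratios, 20 between ages and 15 over FABP1-low cells, which favours values that stay past 2-fold. Of 500 values, 482 kept their side of 2-fold, 7 were stronger, 11 weaker and 0 reversed. S100A6, APOA1, HBB and SLC51A were among the genes with weaker values. Leaving out cells of over 50000 UMIs, also chosen after seeing the data, gave 683 genes higher and 355 lower. No paired analysis was possible because each age had 1 library, and no replicate could be left out. The number of members limits d1, d14 and d21, with 5, 8 and 22 cells.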
